A study of Mus musculus with 12 samples.

Results

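Transcripts of 8 genes of core and primed pluripotency, *Pou5f1*, *Sall4*, *Utf1*, *Tdgf1*, *Dppa2*, *Dppa4*, *Dppa5a* and *L1td1*, were followed across 4 groups of mouse cells derived from embryonic stem cells (ESCs). The genes were chosen by name, as a list of general and primed pluripotency genes. Their values did not enter the rule, but earlier results of these data were known when the list was chosen. All 8 were found among the 45706 genes of the count table, and all 8 were among the 17003 genes that passed the filter on low counts and were tested. The filter was applied over all 4 groups together.

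Baseline cells were *Sox1*-negative glial progenitors, also called neural progenitor cells (NPCs), and were not sorted according to the labels. Sox1posGP cells were *Sox1*-positive glial progenitors, sorted for GFP after dCas9-VP64, a catalytically dead Cas9 fused to a transcriptional activator, had been directed to the *Sox1* promoter. The NSC group held neuroepithelial cells from neural induction of ESCs that were not sorted, and the NR group held neuroepithelial cells of neural rosettes sorted for GFP. Each group had 3 libraries, which the series' design describes as independent samples made on different days, and the labels give the strain C57BL/6 for all of them. The reporter was GFP knocked into 1 allele of *Sox1*. The NPC lines expressing dCas9-VP64 were clonal, and the lines behind each library are not stated. No pluripotent culture was among the libraries analysed here, so the level of the 8 genes in ESCs or epiblast was not available as a reference.

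Pluripotent cells of the early embryo, and the ESCs grown from them, can give rise to every tissue of the body. A network of transcription factors around Oct4, the product of *Pou5f1*, keeps them in that state, and the network is shut down when cells enter the neural lineage. Naive cells correspond to the epiblast before implantation and primed cells to the epiblast after it; several genes, *Pou5f1* and *Sall4* among them, are active in both. The 8 genes differ in their roles. *Pou5f1* and *Sall4* encode DNA-binding transcription factors. *Utf1*, *Dppa2* and *Dppa4* encode chromatin-associated proteins, *Tdgf1* encodes Cripto, a co-receptor of the ligand Nodal, and *Dppa5a* and *L1td1* encode RNA-binding proteins.

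In the mm10 build (GRCm38), *Pou5f1* lies at chr17:35506018-35510772 on the plus strand and *Sall4* at chr2:168748332-168767943 on the minus strand. *Utf1* lies at chr7:139943789-139945112 on the plus strand and *Tdgf1* at chr9:110939603-110946158 on the minus strand. *Dppa4* (chr16:48283733-48294237) and *Dppa2* (chr16:48303908-48319723) are neighbours on the plus strand, with 9670 bases between the end of *Dppa4* and the start of *Dppa2*. *Dppa5a* lies at chr9:78367052-78368177 on the minus strand and *L1td1* at chr4:98726734-98738480 on the plus strand. All 8 are annotated as protein-coding. Their exons cover between 619 bases in *Dppa5a* and 5536 bases in *Sall4*, so levels are ordered between genes after division by this length. Counts, CPM and the shares of the 8 genes are given without this division.

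Promoter sequences from RefSeq (GRCm38.p6), 250 bases before to 50 bases after the start, were available for 4 of the 8 genes. They are shown because these genes moved together across the groups, and the CpG dinucleotides, the sites of DNA methylation in mammals, are in capitals.
*Pou5f1*, chr17:35505782-35506081, plus strand: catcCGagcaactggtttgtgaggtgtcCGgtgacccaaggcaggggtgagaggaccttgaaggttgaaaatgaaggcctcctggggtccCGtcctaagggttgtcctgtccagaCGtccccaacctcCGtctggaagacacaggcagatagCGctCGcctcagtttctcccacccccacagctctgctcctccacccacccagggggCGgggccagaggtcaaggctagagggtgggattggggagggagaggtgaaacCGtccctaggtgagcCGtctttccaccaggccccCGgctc
*Utf1*, chr7:139943606-139943905, plus strand: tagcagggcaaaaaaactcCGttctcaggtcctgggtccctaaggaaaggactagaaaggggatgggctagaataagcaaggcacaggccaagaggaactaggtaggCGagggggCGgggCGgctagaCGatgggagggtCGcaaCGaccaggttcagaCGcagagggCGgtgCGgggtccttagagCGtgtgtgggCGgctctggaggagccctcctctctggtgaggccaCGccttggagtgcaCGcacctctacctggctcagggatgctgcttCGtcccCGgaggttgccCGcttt
*Tdgf1*, chr9:110946109-110946408, minus strand: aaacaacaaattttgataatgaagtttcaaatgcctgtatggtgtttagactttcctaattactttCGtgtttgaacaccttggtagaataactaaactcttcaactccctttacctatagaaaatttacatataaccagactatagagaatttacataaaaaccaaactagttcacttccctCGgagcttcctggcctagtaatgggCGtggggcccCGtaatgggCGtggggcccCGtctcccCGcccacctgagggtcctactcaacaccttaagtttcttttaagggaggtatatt
*L1td1*, chr4:98726504-98726803, plus strand: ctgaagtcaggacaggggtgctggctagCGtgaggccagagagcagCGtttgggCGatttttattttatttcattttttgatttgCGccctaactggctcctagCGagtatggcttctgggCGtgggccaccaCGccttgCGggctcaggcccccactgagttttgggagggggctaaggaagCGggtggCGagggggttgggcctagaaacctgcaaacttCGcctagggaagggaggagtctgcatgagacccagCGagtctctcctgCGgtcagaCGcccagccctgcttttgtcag

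These windows held 11 CpG dinucleotides in *Pou5f1*, 17 in *Utf1*, 7 in *Tdgf1* and 14 in *L1td1*, against a median of 7 over 32851 promoters of the same length. GC content was 62.67% in *Pou5f1*, 62.0% in *Utf1*, 41.67% in *Tdgf1* and 58.67% in *L1td1*, against a median of 52.67%. *Tdgf1* was thus at the median in CpG dinucleotides and below it in GC content, and the other 3 windows shown were above the median in both. RefSeq also lists a second *Pou5f1* start, whose window (chr17:35508557-35508856, plus strand) is not shown and was below the median in both, with 6 CpG dinucleotides and a GC content of 45.67%. Each window was searched for 4 short motifs on both strands. These were the octamer ATGCAAAT bound by POU factors, found in 1.735% of all promoters, the Sox core CTTTGT in 18.71%, the TATA box TATAAA in 13.62% and the E2F6-type site TCCCGC in 19.98%. None of the 4 windows shown held any of these letters on either strand.

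Depth differed between the groups. Baseline libraries held between 4939268 and 18351483 counts, Sox1posGP between 3407066 and 6315574, NSC between 29046205 and 43095688, and NR between 16707006 and 34594885. Levels are given as CPM, the counts of a gene per 1000000 counts of the library size scaled by the trimmed mean of M-values (TMM), and 3 counts in each library correspond to a mean of 0.408 CPM in Baseline, 0.613 in Sox1posGP, 0.0874 in NSC and 0.122 in NR. A gene is called changed at an adjusted p under 0.1 in edgeR's quasi-likelihood test. The labels were checked with *Sox1*, which had 4.83, 6.00 and 5.43 CPM in Baseline replicates 1 to 3, 20.3, 20.9 and 21.7 in Sox1posGP and 48.6, 64.9 and 51.8 in NSC. In the libraries labelled NR it had 4.62, 20.0 and 19.2 CPM. Replicate 1 of NR was therefore at the Baseline level for the gene whose reporter was sorted, so NR below stands for the libraries labelled NR, and NR results are also given without this library. The glial progenitor gene *Olig1* averaged 1757 CPM in Baseline, 4.94 in NSC and 3.00 in NR.

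**Figure D1:**
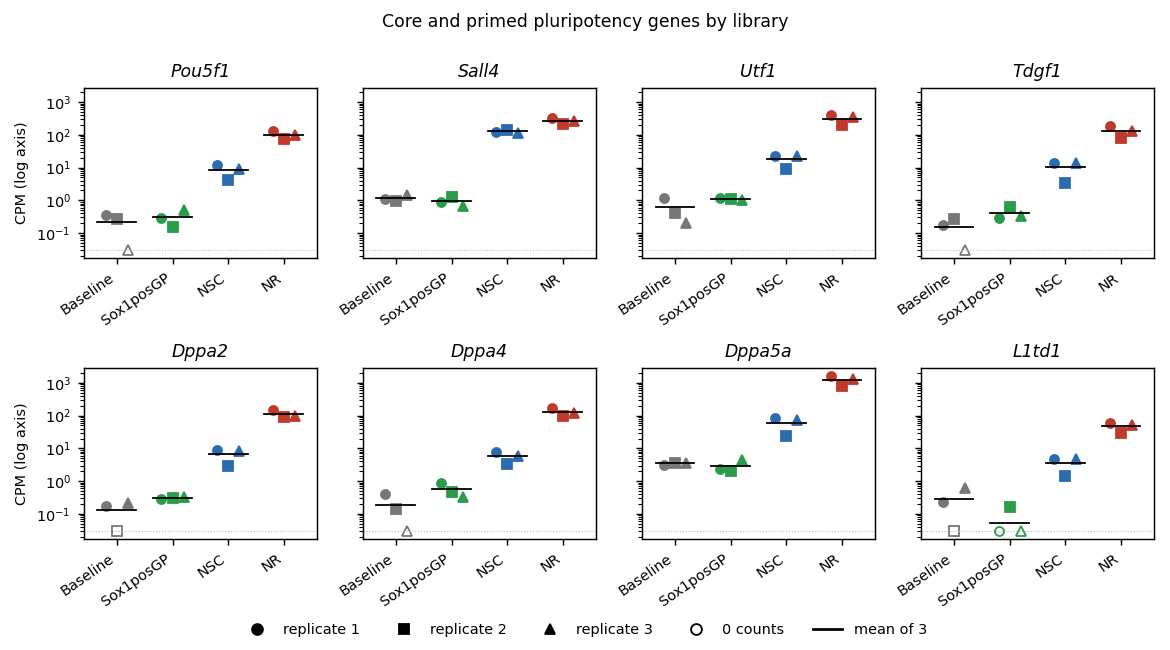
Level of each of the 8 genes in each of the 12 libraries, in CPM on a log axis. Symbols mark replicates 1 to 3, bars the mean of 3, and open symbols on the dotted line libraries with 0 counts. Every NR library lies above every NSC library, and every NSC library above every Baseline and Sox1posGP library, for all 8 genes.

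The 8 genes were highest in NR, intermediate in NSC and near the limit of detection in Baseline and Sox1posGP, as the plot of each gene by library shows. Their summed level was 5.72 to 6.92 CPM in Baseline and 6.08 to 7.67 CPM in Sox1posGP. It was 189 to 276 CPM in NSC and 1607 to 3026 CPM in NR. All 8 were higher in NSC than in Baseline, where 44.4% of all tested genes were called higher and 33.7% lower. All 8 were higher in NR than in Baseline, where the shares were 45.6% and 34.1%. In both comparisons the 2 groups did not overlap for any of the 8 genes, which held for 43.8% of all genes for NSC above Baseline and for 44.4% for NR above Baseline. All 8 were also higher in NR than in NSC, against 30% of all tested genes called higher and 26.6% called lower. Between Sox1posGP and Baseline none of the 8 was called in either direction, against 21.6% of genes called higher and 22.7% called lower. In a fit of these 2 groups alone, 7 of the 8 fell below the filter. The absence of calls is therefore not a like-for-like contrast with these shares. In these bulk libraries, fewer cells that transcribe a gene and less RNA per cell cannot be told apart.

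*Pou5f1* encodes Oct4, the POU-domain factor at the centre of the pluripotency network. It had 12.0, 4.21 and 8.84 CPM in the NSC libraries and 133, 74.8 and 95.5 CPM in the NR libraries. In Baseline it had 6, 2 and 0 counts (0.358, 0.279 and 0 CPM), and in Sox1posGP 1, 1 and 3 counts (0.290, 0.157 and 0.500 CPM). The lowest NR library stood above the highest NSC library, and NSC did not overlap with either progenitor group. The log2 difference was 4.90 ± 0.60 (SE) between NSC and Baseline, with an adjusted p of 5.24e-06, and 8.49 ± 0.53 between NR and Baseline, with an adjusted p of 5.57e-09. Without Baseline replicate 1 these were 5.59 and 9.17. NR exceeded NSC 12.0-fold (95% interval 7.51 to 19.2), with an adjusted p of 2.44e-06.

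*Sall4* encodes a zinc-finger factor that binds DNA together with Oct4. It had 124, 141 and 116 CPM in NSC and 329.7, 221 and 271 CPM in NR. Baseline libraries had 19, 7 and 7 counts (1.13, 0.977 and 1.46 CPM) and Sox1posGP libraries 3, 8 and 4 counts (0.869, 1.26 and 0.667 CPM). Its NSC libraries were close to each other, with a coefficient of variation of 9.72%, against 39.2% to 59.0% for the other 7 genes in NSC. The log2 difference from Baseline was 6.78 ± 0.21 in NSC, with an adjusted p of 1.09e-11, and 7.88 ± 0.21 in NR, with an adjusted p of 3.96e-12. NR exceeded NSC 2.15-fold (95% interval 1.78 to 2.6; adjusted p = 1.86e-05), and the lowest NR library was 1.57 times the highest NSC library.

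*Utf1* encodes a chromatin-associated factor named for its expression in undifferentiated ESCs. Its level was 22.5, 8.80 and 21.9 CPM in NSC and 389, 203 and 352 CPM in NR. Baseline had 20, 3 and 1 counts (1.19, 0.419 and 0.209 CPM) and Sox1posGP 4, 7 and 6 counts (1.16, 1.1 and 1.00 CPM). The Baseline libraries were spread more widely than those of Sox1posGP, and the 2 groups overlapped. On the log2 scale *Utf1* was 4.44 ± 0.53 higher in NSC than in Baseline, with an adjusted p of 4.47e-06, and 8.58 ± 0.49 higher in NR, with an adjusted p of 2.70e-09. Without Baseline replicate 1 the differences were 5.69 and 9.83. NR exceeded NSC 17.7-fold (95% interval 10.9 to 28.7; adjusted p = 1.17e-06).

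The neighbours *Dppa2* and *Dppa4* encode SAP-domain proteins that bind chromatin in pluripotent and early germ cells. *Dppa2* had 9.04, 2.87 and 8.20 CPM in NSC and 145, 88.1 and 98.3 CPM in NR, and *Dppa4* had 8.01, 3.45 and 6.03 CPM in NSC and 169.6, 95.04 and 121 CPM in NR. In Baseline *Dppa2* had 3, 0 and 1 counts and *Dppa4* 7, 1 and 0. In Sox1posGP they had 1, 2 and 2 counts and 3, 3 and 2 counts. For both genes the lowest NR library was above the highest NSC library, and NSC did not overlap with the progenitor groups. Compared with Baseline, *Dppa2* was higher by 5.54 ± 0.72 on the log2 scale in NSC (adjusted p = 9.24e-06) and by 9.57 ± 0.59 in NR (adjusted p = 5.23e-09). *Dppa4* was higher by 4.4 ± 0.57 in NSC (adjusted p = 8.73e-06) and by 8.84 ± 0.47 in NR (adjusted p = 1.31e-09). These rest on 4 Baseline counts in all for *Dppa2* and 8 for *Dppa4*. Without Baseline replicate 1 they rose to 6.21 and 10.2 for *Dppa2* and to 6.02 and 10.46 for *Dppa4*. NR exceeded NSC 16.3-fold (95% interval 9.97 to 26.5) for *Dppa2* and 21.7-fold (14.1 to 33.6) for *Dppa4*, the largest ratio of the 8 genes in this comparison.

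*Tdgf1* encodes Cripto, which Nodal needs to signal through activin receptors. NSC libraries had 14, 3.28 and 13.5 CPM and NR libraries 188, 81.8 and 130.4 CPM. In Baseline 3, 2 and 0 counts were found and in Sox1posGP 1, 4 and 2. *Tdgf1* had the widest spread of the 8 genes in both NSC and NR, with a coefficient of variation of 59.0% in NSC and 39.9% in NR. It was 5.85 ± 0.89 higher on the log2 scale in NSC than in Baseline (adjusted p = 4.05e-05) and 9.53 ± 0.76 higher in NR (adjusted p = 6.45e-08). NR exceeded NSC 12.9-fold (95% interval 6.88 to 24.0; adjusted p = 1.75e-05).

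*Dppa5a* encodes a KH-domain RNA-binding protein found in pluripotent and germ cells. It had 82.4, 24.4 and 71.1 CPM in NSC and 1612, 813 and 1272 CPM in NR. It was also the gene with the most counts of the 8 in both progenitor groups, with 54, 26 and 17 in Baseline (3.22, 3.63 and 3.55 CPM) and 8, 13 and 27 in Sox1posGP (2.32, 2.04 and 4.50 CPM). Per kilobase of exon, *Dppa5a* averaged 1990 ± 648 CPM (SD, n = 3) in NR and ranked 3 among the 17003 tested genes. Its rank was 411 in NSC, with 95.8 ± 49.7 CPM per kilobase, and 6937 in Baseline, with 5.60 ± 0.35. The log2 difference from Baseline was 4.12 ± 0.48 in NSC (adjusted p = 3.08e-06) and 8.50 ± 0.51 in NR (adjusted p = 3.74e-09). NR exceeded NSC 20.7-fold (95% interval 11.8 to 36.4; adjusted p = 2.07e-06).

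*L1td1* encodes an RNA-binding protein derived from the ORF1 protein of LINE-1 retrotransposons. It had the lowest CPM of the 8 genes in NSC and NR, with 4.59, 1.45 and 4.69 CPM in NSC and 59.7, 30.3 and 52.1 CPM in NR. In Baseline it had 4, 0 and 3 counts, and in Sox1posGP a single count in replicate 2. Its closest libraries in NSC and Baseline differed 2.32-fold, the smallest gap of the 8 genes between these groups. The log2 difference from Baseline was 3.85 ± 0.72 in NSC (adjusted p = 2.68e-04) and 7.55 ± 0.62 in NR (adjusted p = 9.16e-08). NR exceeded NSC 13.1-fold (95% interval 7.31 to 23.3; adjusted p = 9.68e-06).

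**Figure D2:**
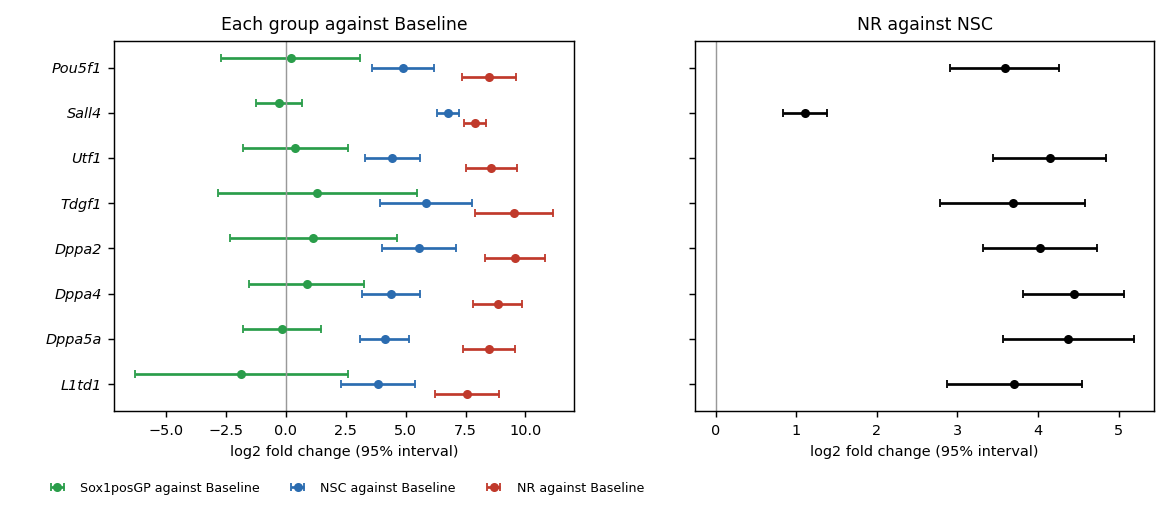
Fitted log2 fold change of each gene with its 95% interval, for each group against Baseline (left) and for NR against NSC (right). All intervals of NSC and NR lie above 0, those of Sox1posGP include 0, and *Sall4* has the largest change in NSC against Baseline and the smallest in NR against NSC.

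Per kilobase of exon, the order of the genes differed between the groups. In NR it ran from *Dppa5a* through *Utf1* (257 ± 80.3 CPM per kilobase), *Dppa4* (77.4 ± 22.8), *Tdgf1* (50.9 ± 20.3), *Sall4* (49.4 ± 9.86), *Dppa2* (45.1 ± 12.3) and *Pou5f1* (45 ± 13.2) to *L1td1* (14.9 ± 4.81). *Tdgf1*, *Sall4*, *Dppa2* and *Pou5f1* differed from each other by less than the spread between replicates, whereas *Utf1* ranked 120 among all tested genes and *L1td1* 4010. In NSC *Dppa5a* was again first, but *Sall4* came next with 22.9 ± 2.23, ahead of *Utf1* with 14.4 ± 6.29. *Tdgf1* (3.92 ± 2.31), *Pou5f1* (3.71 ± 1.74), *Dppa4* (3.51 ± 1.37) and *Dppa2* (2.74 ± 1.37) overlapped in NSC, and *L1td1* was last with 1.13 ± 0.58.

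The comparison of NR with NSC set libraries labelled as sorted rosette cells beside the unsorted neuroepithelial culture. In it 7 of the 8 genes were more than 4-fold higher in NR, which held for 7.34% of all tested genes, and the exception was *Sall4*. The median log2 difference of the 8 genes was 3.86, and that of all tested genes 0.014. Neither group overlapped with the other for any of the 8 genes, which held with NR higher for 30% of all genes. Without NR replicate 1, the library with the Baseline level of *Sox1*, all 8 were still called, with log2 differences of 0.95 for *Sall4* and between 3.34 and 4.19 for the other 7. Against Baseline the 8 differences then lay between 7.32 and 9.29. Leaving out any other library moved no difference between NR and NSC by 1.5-fold.

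NR replicate 1 had the highest level of all 8 genes in its group, replicate 3 was in the middle and replicate 2 was lowest, an order found in 29% of all tested genes. In NSC replicate 2 was lowest for 7 of the 8 genes, against 42.1% of all genes. *Sall4* was again the exception, with its lowest NSC level in replicate 3 and its highest in replicate 2. The highest library exceeded the lowest in NSC by between 2.32 times in *Dppa4* and 4.27 times in *Tdgf1*, but 1.21 times in *Sall4*. In NR the corresponding ratios lay between 1.49 in *Sall4* and 2.30 in *Tdgf1*. Levels of neuroepithelial genes differed among the NR libraries as well. *Nes*, an intermediate filament gene of neural stem cells, had 76.9, 240.2 and 185 CPM in NR replicates 1 to 3, and *Cdh2*, which encodes N-cadherin, had 123, 334 and 215 CPM. The NR library with the highest pluripotency gene levels was thus the lowest in *Nes*, *Cdh2* and *Sox1*, and the part of this in the results for the 8 genes was not tested.

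The make-up of the 8 genes' counts set *Sall4* apart from the others. In NSC *Sall4* supplied 51.6% of the 26056 counts of the 8 genes and *Dppa5a* 25.8%. In NR *Sall4* supplied 11.9% of 184088 counts and *Dppa5a* 52.5%. These shares are not divided by exon length, which is longest in *Sall4* and shortest in *Dppa5a*. Per kilobase of exon *Dppa5a* was above *Sall4* in NSC too, at 95.8 against 22.9 CPM. On the log2 scale of CPM, *Sall4* exceeded the mean of the other 7 genes by 3.15, 4.94 and 3.24 in the NSC libraries. In the NR libraries the excess was 0.60, 0.95 and 0.71, without overlap. Division by length would shift these values alike in all libraries.

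In Baseline, where 186 counts were found over the 8 genes, *Dppa5a* supplied 52.2% (exact 95% interval 44.7 to 59.5) and *Sall4* 17.7% (12.5 to 24.0). In Sox1posGP, with 106 counts, the shares were 45.3% (35.6 to 55.2) and 14.2% (8.14 to 22.3). The exact intervals of the Baseline shares contained the NR share for 7 of the 8 genes, all but *Sall4*, and the NSC share for 5, all but *Sall4*, *Utf1* and *Dppa5a*. Those of Sox1posGP contained the NR share for 8 of 8 genes and the NSC share for 4, the others being *Sall4*, *Utf1*, *Dppa4* and *Dppa5a*. These intervals cover counting error only, and a share within an interval does not show that the make-up is the same.

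**Figure D3:**
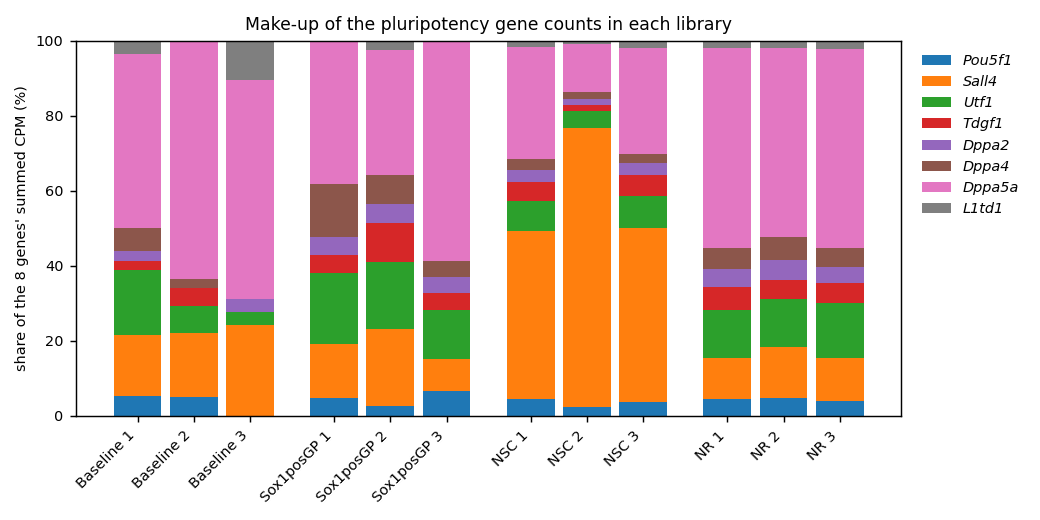
Share of each of the 8 genes in their summed CPM (%), not divided by exon length, for each of the 12 libraries. *Sall4* takes the largest share in the NSC libraries and *Dppa5a* in the NR and Baseline libraries; the bars of Baseline and Sox1posGP rest on 21 to 116 counts each.

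Sox1posGP was compared with Baseline to see whether the pluripotency genes followed the activation of *Sox1* in glial progenitors. None of the 8 genes was called, with adjusted p between 0.529 and 0.951. In these 2 groups alone 7 of the 8 were below the filter, and they were tested here only because NSC and NR were in the fit. None had an unadjusted p under 0.05 either (the lowest was 0.384), and the DESeq2 Wald test called 0 as well. Over the 8 genes and 3 libraries, 14 of 24 values in Baseline and 15 of 24 in Sox1posGP were 3 counts or fewer, and 5 and 2 of them were 0. The log2 difference was -0.28 for *Sall4* (95% interval -1.24 to 0.68), -0.17 for *Dppa5a* (-1.78 to 1.45) and 0.40 for *Utf1* (-1.80 to 2.6). For *Utf1* 20 of the 24 Baseline counts were in replicate 1, and without that library the difference was 1.70 ± 1.54 and was again not called. For the others the interval was wider, from -2.72 to 3.11 for *Pou5f1*, from -1.53 to 3.27 for *Dppa4* and from -2.85 to 5.48 for *Tdgf1*, so a change of several-fold was not detectable at this depth.

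The Sox1posGP libraries were all above the Baseline libraries for 2 genes, *Tdgf1* and *Dppa2*, a pattern found in 25.7% of all tested genes in that direction. *Tdgf1* had 0.290, 0.628 and 0.334 CPM in Sox1posGP and 0.179, 0.279 and 0 CPM in Baseline. *Dppa2* had 0.290, 0.314 and 0.334 CPM in Sox1posGP and 0.179, 0 and 0.209 CPM in Baseline. Neither passed the test, and *Dppa2* was at 3 counts or fewer in every library of both groups, so any fitted fold for it rests on counts at the floor. *L1td1* had 1 count in Sox1posGP and 7 in Baseline, a depth-scaled ratio of 0.259 with an exact counting interval of 0.00575 to 2.02.

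Set against NSC and NR, all 8 genes were lower in Sox1posGP, with no overlap between the groups. Against NSC 41.8% of all genes were called lower and 31.4% higher, and against NR 44.4% were called lower and 32% higher. All Sox1posGP libraries were below all NSC libraries for 42.8% of all genes and below all NR libraries for 44.1%. The log2 differences from NSC lay between -7.06 for *Sall4* and -3.52 for *Dppa4*. Those from NR lay between -8.67 for *Dppa5a* and -7.96 for *Dppa4* in the 7 genes with more than 1 count in Sox1posGP. For *Pou5f1* they were -4.71 ± 0.69 from NSC and -8.29 ± 0.56 from NR, and without Sox1posGP replicate 3 they were -5.34 and -8.92. For *L1td1*, with its 1 count in Sox1posGP, the depth-scaled ratio was 0.0168 to NSC (exact counting interval 4.24e-04 to 0.0941) and 0.00139 to NR (3.52e-05 to 0.00776). Its fitted log2 difference from NSC was -5.70 with all libraries, -9.23 without Sox1posGP replicate 2 and -5.09 without replicate 3, and from NR -9.41, -12.9 and -8.79. Without replicate 2 no count was left in Sox1posGP, so those fitted values depend on the prior count. Without NR replicate 1 the 8 differences from NR lay between -9.19 and -7.70. These comparisons share libraries with those above and are not independent of them.

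Genes of the naive network, which are active in ESCs and fall at the transition to the primed state, moved in the same direction as the 8 genes in NR. Of 12 such genes, 11 were higher and 0 lower in NR than in Baseline, and 12 were higher in NR than in NSC, with a median log2 difference of 3.79. In NSC against Baseline 9 were higher and 2 lower. The lower ones, named after their values were seen, were *Klf4* (-1.59) and *Nr5a2* (-1.60). *Nr0b1*, which encodes the orphan nuclear receptor Dax1, rose from 0.149 ± 0.13 CPM (SD, n = 3) in Baseline to 6.35 ± 3.25 in NSC and 89.8 ± 31.5 in NR. *Fgf4*, a growth factor gene controlled by Oct4 and Sox2, had 0.199 ± 0.21 CPM in Baseline and 6.05 ± 3.30 in NSC. *Prdm14*, a regulator of naive pluripotency and of germ cells, had a single count in Baseline and 22.8 ± 7.02 CPM in NR. In Sox1posGP against Baseline *Klf2* was higher by 1.52 ± 0.22 and *Klf4* lower by 2.50 ± 0.34 on the log2 scale, and the other 10 were not called. Both genes differed from Baseline in the same direction in NSC.

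All 12 genes of the formative and primed epiblast list were higher in NSC and in NR than in Baseline. Between NR and NSC 10 were higher in NR and 1 was lower, and the median log2 difference was 2.49. *Cdh1*, which encodes E-cadherin, had 0.621 ± 0.46 CPM in Baseline, 57.3 ± 5.67 in NSC and 259 ± 83.0 in NR. *Dnmt3l*, a cofactor of the de novo DNA methyltransferases, had 0.292 ± 0.12 CPM in Baseline and 92.5 ± 31.1 in NR. *Sfrp2*, a secreted modulator of Wnt signalling that neuroepithelium also expresses, was the gene that was lower in NR, with 6.53 ± 0.13 CPM in Baseline, 683 ± 15.6 in NSC and 193 ± 96.2 in NR. In Sox1posGP, 2 of the 12 were higher than in Baseline and 0 lower, against 21.6% and 22.7% of all tested genes. *Pou3f1*, a POU factor of epiblast and neural cells, was higher by 0.94 ± 0.13 on the log2 scale.

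Of 10 genes for partners of Oct4 and shared core factors, 9 were higher and 1 lower in NSC than in Baseline, and the same counts were found for NR. *Lin28a* and *Lin28b*, whose proteins block maturation of let-7 miRNAs, had 65.7 ± 33.9 and 110.2 ± 6.75 CPM in NSC, against 0.504 ± 0.076 and 0.319 ± 0.28 in Baseline. *Zscan10* had 0.371 ± 0.08 CPM in Baseline and 117 ± 40.1 in NR. *Sox2*, which is used by pluripotent and neural cells alike, was the lower gene in both comparisons, and it was also lower in Sox1posGP than in Baseline by 1.80 ± 0.10 on the log2 scale. Between NR and NSC the list was divided, with 5 genes higher, 3 lower and 2 not called.

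*Tdgf1* was set beside 12 tested genes of Nodal signalling. Against Baseline 10 were higher and 2 lower in NSC, and 9 were higher and 3 lower in NR. Between NR and NSC 6 were higher in NR and 4 lower. The largest rises from Baseline, in NSC and in NR, were those of *Lefty1* and *Gdf3*. *Lefty1*, a Nodal antagonist and target, had 0.355 ± 0.18 CPM in Baseline, 38.5 ± 14.3 in NSC and 284 ± 107 in NR, and the ligand gene *Gdf3* had at most 1 count in each Baseline library, 9.60 ± 3.76 CPM in NSC and 59.4 ± 15.4 in NR. The signal transducer *Smad4* and the receptor gene *Acvr2a*, which are widely expressed, had 144 ± 19.9 and 45.4 ± 8.12 CPM in NR and were lower than in NSC. Both were also lower in Sox1posGP than in Baseline, by 0.72 ± 0.15 and 0.66 ± 0.13 on the log2 scale. In that comparison 1 of the 12 was higher and 3 were lower, against 21.6% and 22.7% of all tested genes. *Cfc1*, the other gene of the Cripto family, had 0 counts in Baseline and Sox1posGP and 0.713 ± 0.12 CPM in NR.

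Relatives and namesakes of the 8 genes did not move as one group. Of 10, 8 were higher and 1 lower in NSC than in Baseline, against 44.4% and 33.7% of all tested genes. In NR 6 were higher and 4 lower than in Baseline, against 45.6% and 34.1%. Between NR and NSC 3 were higher in NR and 5 lower, against 30% and 26.6%. The 3 that were higher in NR than in NSC were *Ooep* and *Khdc3*, which are KH-domain relatives of *Dppa5a* known from oocytes, and *Dppa3*, a namesake only. *Ooep* had 0.109 ± 0.10 CPM in Baseline, 3.35 ± 1.65 in NSC and 60.0 ± 20.0 in NR. *Khdc3* had 0 counts in Baseline and was at least 9.27-fold higher in NR, taking 3 counts in each Baseline library as the floor. Its call in NSC rests on at most 4 counts in a library, and its mean there of 0.0901 CPM lay under that floor of 0.408 CPM. The relatives of *Sall4*, named after their values were seen, went the other way between NR and NSC. *Sall1* differed by -0.45 ± 0.07, *Sall2* by -1.30 ± 0.16 and *Sall3* by -0.61 ± 0.13 on the log2 scale, against 1.11 ± 0.13 for *Sall4*. *Pou3f3* and *Pou3f2*, POU factors of neural cells, were lower in Sox1posGP than in Baseline by 1.29 ± 0.25 and 0.75 ± 0.28, and 2 further relatives were lower there. Of all tested genes 22.7% were called lower in that comparison.

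Of 8 genes that depend on *Dppa2* and *Dppa4* in ESCs, 6 were higher and 1 lower in NSC than in Baseline, and 7 were higher and 1 lower both in NR than in Baseline and in NR than in NSC. *Zscan4c* and *Zscan4f*, near-identical genes that are active in bursts in ESCs, had 0 counts in Baseline. With 3 counts in each Baseline library as the floor, *Zscan4c* was at least 6.15-fold higher in NSC and at least 72.9-fold higher in NR, and *Zscan4f* at least 1.88-fold and at least 20.4-fold higher. Reads of the *Zscan4* copies may have been divided among them. *Tdrkh*, a Tudor-domain gene of the piRNA pathway with 99.2 ± 5.35 CPM in Baseline, was the one that was lower, and it was the one gene of the list called in Sox1posGP, where it was higher by 0.52 ± 0.11 on the log2 scale.

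**Figure D4:**
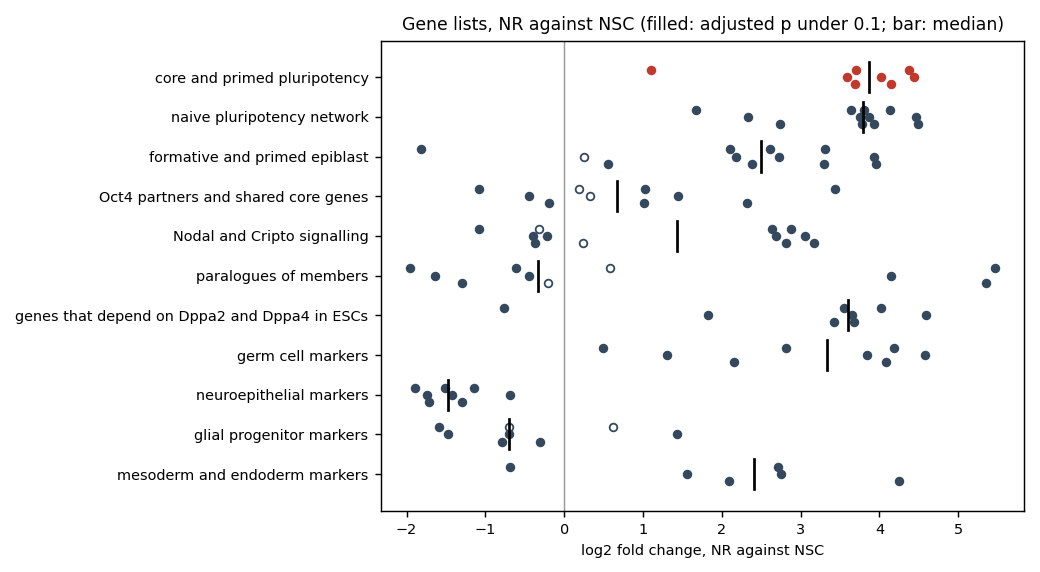
Log2 fold change between NR and NSC of each tested gene (points) in the 8 genes and 10 further lists, with the median of each list (bar) and filled points for an adjusted p under 0.1. The 8 genes, the naive list and the germ cell markers lie to the right of 0, and the neuroepithelial markers all lie to the left.

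Markers of other cell types were read in the same libraries. All 8 neuroepithelial markers were higher in NSC than in Baseline and all 8 were lower in NR than in NSC. Between NR and Baseline 4 were higher in NR and 3 lower. The summed level of the 8 was 1007 to 1035 CPM in Baseline and 1328 to 1370 in Sox1posGP. It was 2547 to 2740 CPM in NSC and 789 to 1562 in NR, with a median of 1243. The lowest NR value was that of replicate 1, the library with the Baseline level of *Sox1*. With it the NR range spanned those of both progenitor groups, and without it NR lay above the Baseline range. *Prom1*, which encodes prominin-1, had 1.68 ± 0.49 CPM in Baseline, 298 ± 13.2 in NSC and 135 ± 37.1 in NR. Of the 8 glial progenitor markers 7 were lower and 1 higher than in Baseline in both NSC and NR. Their summed level was 6501 to 6874 CPM in Baseline, 3339 to 3535 in Sox1posGP, 434 to 760 in NSC and 199 to 327 in NR, and *S100b* fell to 0.260 ± 0.05 CPM in NSC from 15.4 ± 2.01 in Baseline. In Sox1posGP against Baseline 5 glial markers were lower and 1 higher, with *Tnc* lower by 2.11 ± 0.24 and *Aldh1l1* higher by 1.59 ± 0.51 on the log2 scale. *Nes* was higher in Sox1posGP by 1.34 ± 0.29, and 3 neuroepithelial markers were higher and 2 lower there. Of all tested genes 21.6% were called higher and 22.7% lower in this comparison.

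All 8 germ cell markers were higher in NR than in Baseline and than in NSC, and 6 were higher in NSC than in Baseline. Several of these genes are also transcribed in ESCs. *Tfap2c* had 0.196 ± 0.05 CPM in Baseline, 4.47 ± 0.62 in NSC and 76.3 ± 19.4 in NR. *Dazl* had a single count in Baseline, 1.21 ± 0.72 CPM in NSC and 22.6 ± 9.13 in NR. In Sox1posGP, 3 of the 8 germ cell markers were higher than in Baseline and 1 was lower, against 21.6% and 22.7% of all tested genes. *Kit*, a receptor tyrosine kinase gene that neural cells also express, was higher by 2.72 ± 0.19 on the log2 scale, and *Ddx4* was lower by 1.57 ± 0.62. Of 6 tested mesoderm and endoderm markers, 5 were higher and 0 lower in NR than in Baseline. *Brachyury* (*T*) had 27.6, 79.8 and 21.6 CPM in NR replicates 1 to 3, and *Sox17* had 1 count in Baseline and 13.0 ± 4.20 CPM in NR. *Eomes* had 2.36 ± 1.45 CPM in NSC, and *Foxa2* was higher in Sox1posGP than in Baseline by 0.96 ± 0.38. The part of other cell types in the levels of the 8 genes was not tested.

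The genes most like each of the 8 were taken by the root mean square distance of log2 CPM, centred on the mean of each gene, over the 12 libraries. *Utf1* and *Dppa4* were nearest to each other within the list, at 0.349. *Pou5f1* was nearest to *Nodal*, at 0.449, and then to *Utf1*, at 0.465. *Tdgf1* was nearest to *Lefty2*, at 0.291, and to *Tex19.1*, at 0.447. *Dppa2* was nearest to *Ooep* (0.559) and *Utf1* (0.561), and *Dppa4* after *Utf1* to *Tdh* (0.493). *Dppa5a* was nearest to *AU018091* (0.373) and *Rbmxl2* (0.432), and *L1td1* to *Elf3* (0.581) and *Tuba3a* (0.649). *Sall4* again stood apart, with *Nptx2* at 0.412 and its closest gene among the 8, *Pou5f1*, at 1.34. These distances are a description, since all 12 libraries and their depths are shared by the genes.

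Reads of several of the 8 genes can also match near-identical copies, and how the authors divided such reads is not stated. *Dppa5a* is the least certain. It shares 95.9% identity over 417 bases with an annotated transcript of *Pigp*. *Pigp* had up to 889 counts in Baseline, 189 in Sox1posGP, 1528 in NSC and 3427 in NR. *Dppa5a* had at most 54, 27, 3684 and 45258 counts in these groups. The part of shared reads in the few progenitor counts of *Dppa5a*, and so in its shares and differences from Baseline, was not tested. *Dppa5a* also has processed pseudogenes such as *Gm6798* (95.8% over 360 bases) with up to 95 counts. *Tdgf1* has the pseudogene *Tdgf1-ps1* (98.8% over 512 bases) with up to 261 counts in NR. *Dppa2* has *Gm9788* (99.3% over 906 bases) with up to 27 counts, and *Dppa4* has *Gm14058* (98.9% over 735 bases) with up to 19. *Sall4* overlaps *Gm14261* on the opposite strand, with up to 19 counts, and *Pou5f1* overlaps *Gm19553*, with 0.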

How the data were processed

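RNA was isolated with the PicoPure kit, amplified with SMART-Seq v4 and made into libraries with the MicroPlex kit v2. The authors deposited whole-number read counts per gene without normalization, for 45706 Ensembl genes in 12 libraries. The submitters' processing notes name STAR 2.6, RSEM 1.1.14 and mm10; whether the counts are rounded RSEM estimates, and how shared reads or strand were handled, is not given in the sources used here. Groups and replicates were taken from the titles and cell type labels. By the labels Baseline cells were unsorted, although the study's text mentions a sort before progenitors were compared. Symbols and coordinates were taken from GENCODE for GRCm38, which left 563 genes, with 0.124% of all counts, unnamed. Replicates differed beyond sampling noise, with a chi-square per degree of freedom of 1.54 to 49.0 over 12 pairs.

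Counts were scaled by TMM, filtered with filterByExpr over the 4 groups and tested with glmQLFit and glmQLFTest in edgeR 4.0.16 (limma 3.58.1, R 4.3.3) over all 12 libraries with no block and a prior count of 0.125. Adjusted p are Benjamini-Hochberg values across the 17003 tested genes, and a gene was called at an adjusted p under 0.1, the study's false discovery rate. Standard errors are the log2 difference over the square root of F. CPM are counts over the scaled library size. Exact intervals are at the 95% level, and they and the floor of 3 counts cover counting error only. Copies were sought with BLAST 2.17.0 at an identity of at least 90% over 100 bases. Same-numbered NR and NSC libraries deviated together from their group means, with correlations of 0.229 to 0.49. The mean of -0.155 for other numbers follows from centring each group on its mean and adds no support for pairing. In the other comparisons the same-number correlations were -0.0472 to 0.0619. All NR against NSC values of the main fit are unpaired, and a block by replicate number was run as an alternative.

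The 8 genes, the further lists and the tests were chosen with earlier results of these data known. Named genes are the 8, the 2 called genes with the largest difference from Baseline in each list and group, *Sox1*, the 2 nearest genes of each of the 8, copies and overlapping genes. Alternatives were DESeq2 1.42.0, other scalings, filters and prior counts, the replicate block, fits of the compared groups alone, thinning to 3407066 counts, other thresholds and the omission of each library. *Gdf1* had no row in the table used, and 2 genes that the naming rule picked are not reported here.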

Additional observations from a re-analysis of the deposited data

How the results depend on the processing

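All 8 genes kept their direction and their call in NSC and NR against Baseline, NR against NSC, and Sox1posGP against NSC and NR under every alternative run except a required fold change over 4, which left 7 of 8 in NR against NSC, without *Sall4*. None was called between Sox1posGP and Baseline under any alternative, and in the fit of these 2 groups alone 7 of the 8 were below the filter and not tested. With the replicate block, which pairs NR and NSC libraries of the same number, 8 of 8 were higher in NR than in NSC, and the block changed no other call. Of 1001 single-gene values, 3 turned direction, none of them called. Between Sox1posGP and Baseline *Pou5f1* was -0.08 without Baseline replicate 3 and -0.42 without Sox1posGP replicate 3, and *Dppa5a* was 0.10 without Sox1posGP replicate 2. With each library left out in turn *Pou5f1* ranged from -0.42 to 0.93 and *Dppa5a* from -0.67 to 0.10. Without Baseline replicate 1, *Utf1* was 1.70 ± 1.54, *Dppa2* 1.87 ± 2.35 and *Dppa4* 2.54 ± 1.81 in this comparison, all uncalled. Of the called values 24 moved by over 1.5-fold, 14 of them when 1 library was left out, and none was in NR against NSC. Apart from the omissions of Baseline replicate 1 and of Sox1posGP replicates 2 and 3 given above, they came from thinning to the smallest total and from a prior count of 1. Thinned, *Dppa4* was 4.99 in NSC and 9.77 in NR above Baseline on the log2 scale. Thinning left 0 Baseline counts of *Pou5f1*, so its fitted differences of 7.64 in NSC, 11.4 in NR and 3.57 in Sox1posGP (adjusted p = 0.133) depend on the prior count. Sox1posGP against NSC then gave -4.08 for *Pou5f1*, -3.71 for *Dppa2* and -4.66 for *L1td1*, and against NR -8.41 for *L1td1*. With a prior count of 1, *L1td1* was -5.003 against NSC and -8.69 against NR. The shallow Baseline and Sox1posGP libraries limit the size of these differences, since most genes rest on few counts there, whereas the comparison of NR with NSC rests on at least 42 counts in every library.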
